A study of Drosophila melanogaster with 2 samples.

Results

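Binding of a tagged transcription factor was mapped by ChIP-seq, the sequencing of DNA recovered with a protein by immunoprecipitation, at the genes for the proteins of the cytoplasmic ribosome in Drosophila melanogaster. The genes were all protein-coding genes of the Ensembl annotation whose symbol begins with RpL or RpS and a digit, together with RpLP0, RpLP1, RpLP2 and sta. Genes for mitochondrial ribosomal proteins were not included. These were 92 of 13945 protein-coding genes, of which 53 were assigned by symbol to the large and 39 to the small ribosomal subunit. Whether each product is part of the ribosome was not checked, also for symbols that end in -like.

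The single group consisted of whole embryos aged 0 to 24 h from flies carrying a transgene for the LIM-homeodomain protein Arrowhead (Awh) fused to enhanced green fluorescent protein. The label fields differ on the antibody, since a free-text field names one against the fluorescent protein and another field names Awh. The 2 samples were biological replicates from separate biosamples, with chromatin sonicated to 200 to 800 bp, and no control library was analysed here. Whole embryos pool all cell types and stages, so bound and unbound cells were not separated, and the labels do not state which sequences drive the transgene.

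Ribosomal protein genes are among the most actively transcribed genes of growing cells, and their products are made in matched amounts. In Drosophila many of them start transcription within a run of pyrimidines called the TCT initiator, which is used with the TATA-binding protein relative Trf2. The factors Dref, which binds TATCGATA, and M1BP, which binds a site containing GGTCACA, are known at many of these promoters.

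The strict list of both replicates together held 4781 regions, after overlapping peaks were merged, and 58 of them (60 peaks) had the start of a ribosomal protein gene as the nearest protein-coding start to their summit. The list holds peaks with an irreproducible discovery rate, a measure of rank agreement between replicates, of 0.01 or less. A region with its summit within 500 bp of that start is called a promoter region here, and 52 of the 58 were promoter regions. Signal is the authors' value for each peak, without a recorded scale, and sequencing depth is unknown because the lists hold no read totals.

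The sequences around the starts of 6 of the 10 genes with the strongest regions are shown first, followed by RpL8, a start made of pyrimidines only, and RpL35, the gene with the weakest promoter region. Each runs from 40 bp before the start nearest to the summit to 20 bp from it, in the direction of transcription. Capitals mark the 8 bases from 2 before to 5 after the start. Sequence was taken from the RefSeq genome of Release 6, the assembly of the dm6 build.
RpS27 (chr3R:25247495-25247554, minus strand): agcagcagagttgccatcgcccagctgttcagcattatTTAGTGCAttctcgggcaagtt
RpL23A (chr3L:1668635-1668694, minus strand): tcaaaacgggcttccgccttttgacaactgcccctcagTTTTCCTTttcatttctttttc
RpL24 (chr2L:13395112-13395171, minus strand): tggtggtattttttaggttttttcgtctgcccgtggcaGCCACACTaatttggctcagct
RpS28b (chrX:9554583-9554642, plus strand): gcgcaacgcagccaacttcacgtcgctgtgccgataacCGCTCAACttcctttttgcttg
RpL27A (chr2L:4458345-4458404, minus strand): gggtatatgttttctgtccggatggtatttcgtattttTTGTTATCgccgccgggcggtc
RpL17 (chrX:6744219-6744278, minus strand): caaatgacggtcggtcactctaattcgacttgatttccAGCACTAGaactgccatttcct
RpL8 (chr3L:2587416-2587475, plus strand): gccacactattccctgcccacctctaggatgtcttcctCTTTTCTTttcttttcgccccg
RpL35 (chrX:5672694-5672753, plus strand): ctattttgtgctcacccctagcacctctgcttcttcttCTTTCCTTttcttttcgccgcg

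Within the capitals, RpL23A, RpL8 and RpL35 carried 8 pyrimidines of 8, while RpS27 carried 4, RpL17 carried 3, RpL24 and RpS28b carried 5 each and RpL27A carried 6. At its canonical start, which is not the one nearest to the summit, RpL24 carried 8. Among the strong regions printed, RpS27 and RpL17 lay at starts with few pyrimidines and RpL23A at an unbroken run. Of the strong regions not printed, RpS4 and RpLP0 lay at starts with 7 pyrimidines of 8 each and RpL7 at one with 3.

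Ribosomal protein genes carried regions more often than the gene set as a whole. At least 1 region was assigned to 55 of the 92 genes (59.8%, 95% Wilson interval 49.6 to 69.2%), against 20.5% of all protein-coding genes. A promoter region was present at 52 genes (56.5%, 46.3 to 66.2%), against 10.6% of all genes. When a summit within 500 bp of a start was counted even where another gene's start lay nearer, 56 ribosomal protein genes were reached, against 13.6% of all genes. In the list of replicate 1 alone 36 ribosomal protein genes had a region, against 14.7% of all genes, and 49 had one in the list of replicate 2 alone, against 16.5%. Both of these lists held 33 of the genes. The intervals cover counting error only and treat genes as independent, and no test was made because the genes were chosen with earlier results of these data known. No control library was analysed, and signal at these starts in embryos lacking the fusion protein was not measured here.

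The genes of mitochondrial ribosomal proteins and of the proteasome, both of housekeeping function, had lower shares in the same list. Genes for mitochondrial ribosomal proteins, which serve translation inside mitochondria, had a region in 8 of 73 cases (11.0%, 5.66 to 20.2%). Genes for proteasome subunits, which form the main cytosolic protease, had one in 3 of 48 cases (6.25%, 2.15 to 16.8%). Both intervals ended below that of the ribosomal protein genes. For promoter regions the shares were 9.59% of the mitochondrial ribosomal protein genes (4.72 to 18.5%) and 4.17% of the proteasome genes (1.15 to 13.98%), and both intervals include the share of all genes. The median start signal stood at percentile 60.3 of all genes for the mitochondrial ribosomal protein genes and at 48.5 for the proteasome genes. A lower share was not seen for the 6 genes of ribosome-associated proteins described further below (66.7%, 30.0 to 90.3%).

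Signal at the start was also read for every gene with or without a listed region, as the strongest peak of the authors' ranked list of candidates with its summit within 500 bp of a start. Such a candidate existed for 85 of the 92 genes, and their median signal was 98.3, against 37.6 over the 10573 other protein-coding genes with one. Replicate 1 gave medians of 48.3 for ribosomal protein genes and 21.3 for other genes, and replicate 2 gave 60.2 and 22.3. The median ribosomal protein gene stood at percentile 90.4 of all genes, at 89.1 in replicate 1 and at 92.0 in replicate 2. Of the 92 genes, 48 were in the top 10% of all genes and 15 lay below the median gene. Start signals of the replicates had a Spearman rho of 0.856 across the 82 genes with a candidate in each, as a description only, since both replicates share the promoters.

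**Figure D1:**
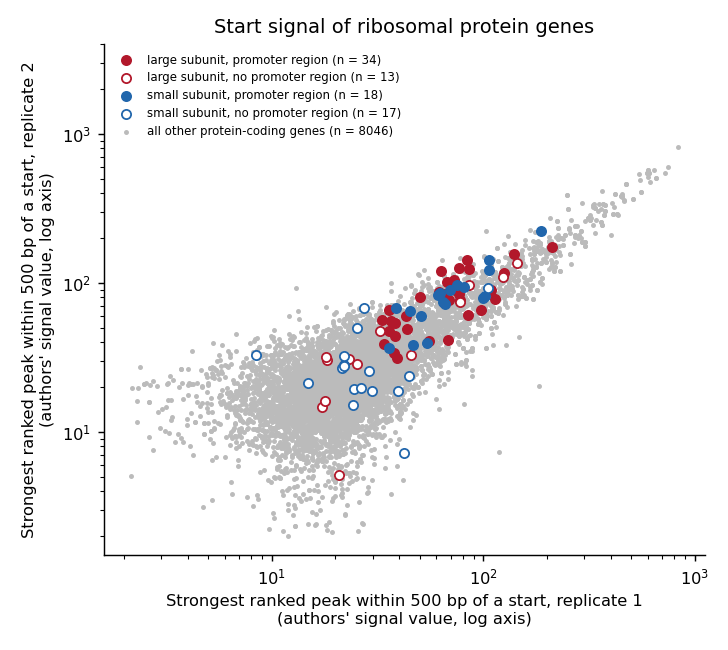
Signal of the strongest ranked peak within 500 bp of a start in replicate 1 (horizontal, log axis) and replicate 2 (vertical, log axis), 1 point per gene. Large-subunit genes are red and small-subunit genes blue, filled where a promoter region was listed, and other protein-coding genes with a value in both replicates are grey. The filled points lie toward the upper right of the grey cloud and the open points spread through it. The list behind the filled points was made from the same peaks.

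Large-subunit genes had regions in 37 of 53 cases (69.8%, 56.5 to 80.5%), and small-subunit genes in 18 of 39 (46.2%, 31.6 to 61.4%). The intervals overlap and the difference was not tested. Counting promoter regions alone, the numbers were 34 large-subunit and 18 small-subunit genes. Among genes without a paralogous copy in the set, 31 of 41 large-subunit genes (75.6%, 60.7 to 86.2%) and 12 of 26 small-subunit genes (46.2%, 28.8 to 64.5%) had a region. Levels at the listed promoters overlapped, with a median signal of 147.3 for the large subunit (n = 34, quartiles 97.3 and 179.5) and 144.5 for the small subunit (n = 18, quartiles 103.0 and 170.0). Start signal over all genes of a subunit with a candidate peak had a median of 135.2 for the large subunit (quartiles 78.4 and 178.2) and 78.9 for the small subunit (quartiles 42.5 and 147.0). In replicate 1 these medians were 62.2 and 43.5 for the large and small subunits, and in replicate 2 they were 65.4 and 44.7, also not tested. In the list of replicate 1 alone the counts were 23 large-subunit and 13 small-subunit genes, and the list of replicate 2 alone gave 32 and 17.

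The strongest region lay at RpS27, which encodes a zinc-finger protein of the small subunit, at 401.8 for both replicates together, 187.5 for replicate 1 and 222.6 for replicate 2. RpL7, a large-subunit gene, followed at 377.7 in both together, 211.4 in replicate 1 and 175.0 in replicate 2. These 2 genes stood at ranks 153 and 176 of the 4781 regions, so the strongest regions of the list lay elsewhere.

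RpL41, which encodes a very short peptide of the ribosome, reached 292.7 (140.3 for replicate 1 and 155.6 for replicate 2), and its summit also lay inside the sodium channel gene NaCP60E. RpS4 had 245.6 (106.4 and 142.7 in replicates 1 and 2). RpL23A, whose product lies at the exit of the nascent chain tunnel, had 240.4 (124.6 and 117.1). Replicate 2 was the higher at RpL41 and RpS4, and replicate 1 at RpL23A.

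RpL24 reached 231.1 (83.7 in replicate 1 and 141.6 in replicate 2). RpS28b had 227.8 (106.5 and 122.3 in replicates 1 and 2). RpLP0, the base of the acidic stalk that recruits translation factors, had 211.0 (85.2 and 123.9). Of these genes, RpL24 had the widest gap between replicates.

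RpL27A had 204.9 (76.9 in replicate 1 and 126.2 in replicate 2), and RpL17, also placed at the tunnel exit, had 199.4 (109.1 and 89.9). All 10 of these genes were also in both replicates' own lists. Replicate 2 gave the higher value in 7 of the 10, the exceptions being RpL7, RpL23A and RpL17.

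Over all 52 promoter regions of ribosomal protein genes the median signal was 146.7 (quartiles 97.5 and 177.6, lowest 65.3, highest 401.8). The 1485 promoter regions of other genes had a median of 112.3 (quartiles 83.7 and 176.5) and reached 1644. The upper quartiles were close, and the lower quartile was the higher at ribosomal protein genes. Above the upper quartile of the whole list lay 20 of the 52 (38.5%), against 31.4% of other promoter regions. Both replicates' own lists held 33 of the 52 (63.5%), against 49.8% of other promoter regions.

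Replicate 2 gave the higher signal at 37 of the 52 promoter regions of ribosomal protein genes, against 599 of the 1474 other promoter regions with a value in both replicates. Over all regions it was the higher at 41 of the 58 of ribosomal protein genes, against 2236 of 4683 others. The median log2 ratio of replicate 1 to replicate 2 was −0.21 at the 52 promoter regions (SD 0.43 across regions), against 0.10 (SD 0.47) at other promoter regions. The difference between these medians was not tested, and the authors' scaling of the 2 lists is not recorded. The extremes were RpL34a, with 68.4 in replicate 1 and 34.3 in replicate 2, and RpL4, a tunnel-wall protein gene, with 63.0 and 119.2. At RpL34a a stronger replicate 2 peak of 41.4 lay within 500 bp of a start but did not overlap the region. Spearman's rho between the replicates was 0.754 over the 52 regions and 0.732 over other promoter regions, as descriptions.

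**Figure D2:**
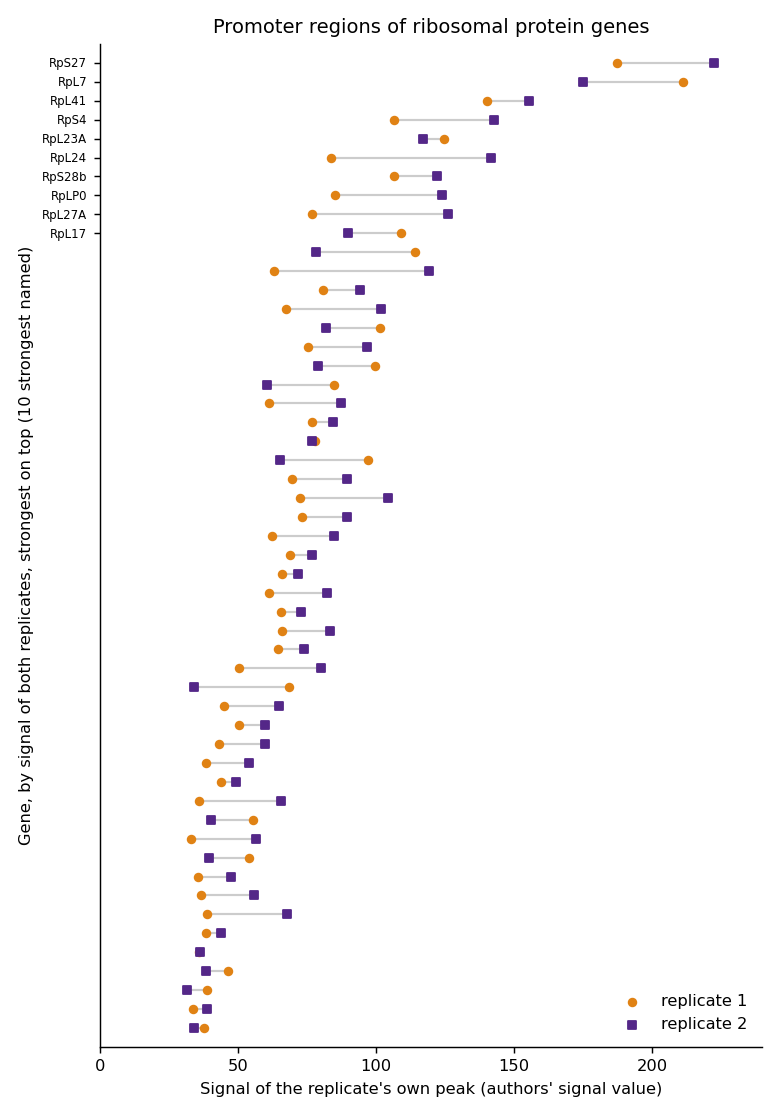
Signal of the promoter region of each of 52 ribosomal protein genes in replicate 1 (orange circles) and replicate 2 (purple squares), with genes ordered by the signal of both replicates together and the 10 strongest named. RpS27 and RpL7 stand apart at the top, and the squares lie right of the circles at 37 of the 52 genes.

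Summits at ribosomal protein genes lay close to the start. The median summit was 9 bp upstream of the start, a position of −9 bp (quartiles −26.5 and 12 bp, range −103 to 60 bp, n = 52). Other promoter regions had their median at −103 bp (quartiles −196 and 5 bp, n = 1485). A summit within 60 bp of the start was found at 50 of the 52 (96.2%), against 17.7% of other promoter regions, and within 25 bp at 32 (61.5%), against 7.61%. The limits of 60 and 25 bp were not set in advance, and 60 bp is also the farthest downstream position of these 52 summits. The exceptions to the 60 bp limit were RpL23A at −103 bp and RpS25 at −97 bp. Of the 52 summits 34 lay upstream and 18 downstream of the start nearest to them. By annotation 28 fell outside the gene, 22 in its 5′ UTR and 2, at RpS18 and RpL35, in an intron. The medians of the subunits were −10 bp for the large and −8.5 bp for the small subunit. With only the canonical start of each gene, the median was −14 bp, and the lists of single replicates gave −16.5 and −10 bp.

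**Figure D3:**
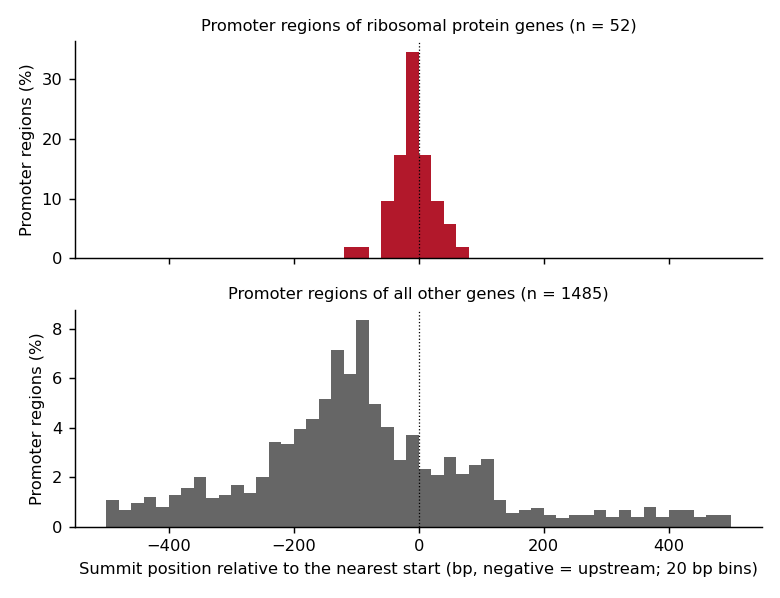
Distribution of summit positions relative to the nearest start in 20 bp bins, as a percent of promoter regions, for 52 regions of ribosomal protein genes (top) and 1485 of other genes (bottom; the vertical scales differ). The upper distribution is narrow and centred near the start, with a median of −9 bp, and the lower one is broad with a median of −103 bp.

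A second region was present at 3 genes, each beside a promoter region. RpS27 had one 526 bp downstream of a start, in its intron, at a signal of 80.3 (44.5 for replicate 1 and 29.8 for replicate 2), well under the 401.8 at its promoter. RpL7 had one 841 bp downstream in coding sequence with 68.5 (32.4 and 34.9 in replicates 1 and 2). RpS23, whose product sits at the decoding centre, had one 1608 bp downstream of its start and outside the gene with 110.1 (59.9 and 48.6), close to the 137.6 at its promoter.

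Another 3 genes had a region away from their promoter alone. RpLP2, a stalk protein gene, had one at −2049 bp inside the cell cycle kinase gene Cdk4, at a signal of 104.6 (39.1 for replicate 1 and 68.4 for replicate 2). RpL6 had one at −1393 bp inside the cyclin gene CycG, with 95.5 (47.3 and 49.8). RpL37-1 had one at −9819 bp inside CG9095, with 89.5 (37.7 and 38). These summits were nearest to a ribosomal protein gene's start but lay within other genes, and at the starts themselves the candidate signals were 46 for RpLP2, 30.9 for RpL6 and 65.6 for RpL37-1.

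No region was assigned to 37 genes, 16 of the large and 21 of the small subunit. The large-subunit genes were RpL5, RpL7-like, RpL10, RpL10Aa, RpL13A, RpL14, RpL21, RpL22-like, RpL23, RpL24-like, RpL26, RpL32, RpL34b, RpL37-2, RpL38 and RpL40. The small-subunit genes included RpS2, RpS3, RpS3A, RpS5b, RpS6, RpS9, RpS10a, RpS13, RpS14a, RpS15, RpS15Ab, RpS19b, RpS20, RpS24, RpS28-like, RpS28a, RpS29, RpS30 and sta. A candidate peak lay at the start of 30 of them, with a median signal of 48.0 over those 30, against a median of 146.7 at the 52 genes with a promoter region. The median percentile among all genes was 66.1 for the 37 genes and 94.8 for the 52. The genes were split by a list made from the same peaks, so these gaps follow from the split and are not a separate result.

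Among the 37, 4 lay beside a strong region whose summit was nearer to a gene starting on the opposite strand. RpL34b had 278.1 (143.8 in replicate 1 and 136.3 in replicate 2) at −176 bp, where the start of CG8132 was 93 bp away. RpL14 had 236.7 (123.3 and 108.9) at −70 bp, with the start of Nelf-E, a subunit of a transcription pausing factor, 57 bp away. RpS20 had 200.8 (104.9 and 92.4) at −193 bp, 140 bp from the start of CG17271. RpL32, often used as a reference gene in flies, had 190.0 (85.7 and 97.1) at −204 bp, 105 bp from the start of CG7943. All 4 signals were above 146.7, the median of the promoter regions assigned to ribosomal protein genes, and the 4 regions were in both replicates' own lists. Which of the paired genes the signal belongs to cannot be told apart from summit distance.

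RpL13A had a candidate peak of 151.3 (77.9 in replicate 1 and 74.2 in replicate 2) at −37 bp that met the score limit of 830 but was not in the strict list as used here. It was 1 of 123 such peaks among 5149 that met the limit. RpL23, a neighbour of the limit with a score of 827, had 81.0 (45.4 and 32.8) and was in the list of replicate 1 alone. RpS6, known as the target of S6 kinase, had 86.6 (27.2 and 67.3) with a score of 729. For sta, whose product belongs to the small subunit, the signal was 71.1 (25.2 and 49.8) and the score 137, far from the limit. Both genes were in the list of replicate 2 alone. On the other side of the limit, the weakest promoter regions were RpL35 with 65.3 (37.7 and 34), RpL36 with 66.7 (33.8 and 38.7) and RpL29 with 70.4 (39 and 31.5). Signals of listed and unlisted genes overlapped, and the list is thresholded on the score, not the signal.

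At the low end, RpL5, RpL10, RpL21, RpL24-like, RpL38, RpS3 and RpS3A had no candidate peak at the start in the list of both replicates. RpL5 and RpL11 encode proteins that bind 5S ribosomal RNA together, and RpL11 had a promoter region of 159.5 (61.4 in replicate 1 and 87.4 in replicate 2). RpL10 had a candidate of 46.5 and RpS3 one of 27.8 in replicate 2 only. RpL21, RpL24-like, RpL38, RpL5 and RpS3A had none in either replicate.

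Paralogous copies differed in a regular way. The set held 12 families with 25 genes whose symbols differ by a closing letter, number or the ending -like, and by the rule each family had exactly 1 gene with a region, while 43 of the 67 single genes had one (64.2%). The region was at the promoter in 11 of the 12 families. The exception was RpL37-1, with its region 9819 bp away. When summits nearer to another gene were also counted, 10 families had 1 gene with a summit within 500 bp of a start, RpL34 had both and RpL37 had neither. Several of the copies without a region, among them RpS5b, RpS10a, RpS19b and RpL22-like, are known in flies for germline expression. Sequences around the starts of both copies are shown for 4 families to set them side by side, with capitals and windows as above and the copy with a promoter region first.
RpS19a (chrX:16637854-16637913, plus strand): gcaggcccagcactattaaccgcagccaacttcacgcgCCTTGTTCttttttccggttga
RpS19b (chr3R:23933511-23933570, minus strand): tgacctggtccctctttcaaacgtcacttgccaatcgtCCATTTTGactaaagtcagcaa
RpS10b (chrX:19597991-19598050, plus strand): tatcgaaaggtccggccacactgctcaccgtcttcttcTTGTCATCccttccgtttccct
RpS10a (chr3R:27652720-27652779, plus strand): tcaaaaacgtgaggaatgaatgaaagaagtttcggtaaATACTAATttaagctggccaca
RpS14b (chrX:7934858-7934917, plus strand): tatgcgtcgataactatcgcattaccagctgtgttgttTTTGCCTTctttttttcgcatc
RpS14a (chrX:7933702-7933761, plus strand): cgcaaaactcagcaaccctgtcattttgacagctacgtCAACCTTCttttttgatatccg
RpL10Ab (chr3L:11822811-11822870, plus strand): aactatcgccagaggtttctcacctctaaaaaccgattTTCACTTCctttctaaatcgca
RpL10Aa (chr3R:15037326-15037385, plus strand): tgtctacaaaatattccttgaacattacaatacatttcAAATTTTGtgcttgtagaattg

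In replicates 1 and 2 RpS19a had start signals of 61.3 and 82.2, and RpS19b had no candidate in either. RpS10b had 75.2 and 96.9, against 21.9 and 28.2 at RpS10a. RpL10Ab had 38.3 and 54.1, against 18 in replicate 1 and no candidate in replicate 2 at RpL10Aa. In all 3 families both replicates gave the same order. The list was made from the same replicates, so this order is not separate support.

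RpS14a and RpS14b are neighbouring copies on X that encode near-identical proteins, and their values are uncertain because the treatment of reads that match both is not stated. RpS14b had 46.3 and 38.3 in replicates 1 and 2, against 24.6 and 19.4 at RpS14a. This was the smallest ratio between copies among the families whose sequences are printed above.

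RpL22 had 78.0 and 76.8 in replicates 1 and 2, against 17.2 and 14.7 at RpL22-like. RpS5a had 50.6 and 59.9, against 21.9 and 27.8 at RpS5b. RpS15Aa had 44.8 and 65.0, against 21.5 and 26.7 at RpS15Ab. Each had the listed copy above the other in both replicates, which the list, made from these replicates, favours.

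RpL7 had 211.4 and 175.0, against 18 and 31.7 at RpL7-like. RpS28b had 106.5 and 122.3, against 42.3 and 7.18 at RpS28a and 13.1 and no candidate at RpS28-like. RpL24 had 83.7 and 141.6, and RpL24-like had no candidate. In the RpL37 family, whose region lay far off, RpL37-1 had 32.6 and 47.7, against 20.7 and 5.12 at RpL37-2.

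RpL34 was the family in which the copy outside the list was the higher, with 68.4 and 41.4 at RpL34a and 143.8 and 136.3 at RpL34b.

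**Figure D4:**
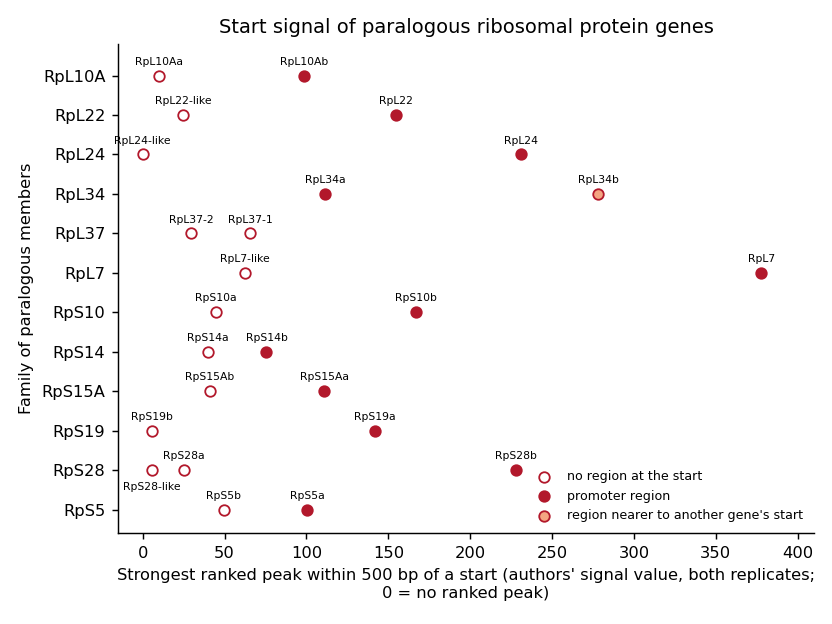
Start signal of both replicates together for the 25 genes of 12 paralogous families, 1 row per family, with 0 standing for no ranked peak. Filled points carry a promoter region, the pale point (RpL34b) lies by a region nearer to another gene's start, and open points have no region at the start. The filled point is the highest of its row in each family but RpL34 and RpL37. The list behind the filled points was made from the same peaks.

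The pyrimidine run at the start, read from the reference sequence at the canonical start of each gene, was common in ribosomal protein genes with and without a region. The letters CTTT on the gene's strand within 10 bp of the start were found at 60 of 92 ribosomal protein genes (65.2%, 55.1 to 74.2%), against 11.0% of the 13944 genes with a full window. They were found at 71.2% of the 52 genes with a promoter region (57.7 to 81.7%), at 54.1% of the 37 without a region (38.4 to 69.0%) and at 12.1% of other genes with a promoter region. A run of 7 or 8 pyrimidines among the 8 bases from 2 before to 5 after the canonical start was found at 40.2% of the 92 genes, against 3.21% of all genes. It was found at 48.1% of the 52 genes with a promoter region (35.1 to 61.3%) and at 27.0% of the 37 without one (15.4 to 43.0%), and these intervals overlap. With any annotated start of the gene in place of the canonical one, a choice made after the data were seen, the shares were 57.6% of the 92 genes, 69.2% of the 52 and 40.5% of the 37, against 4.78% of all genes.

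**Figure D5:**
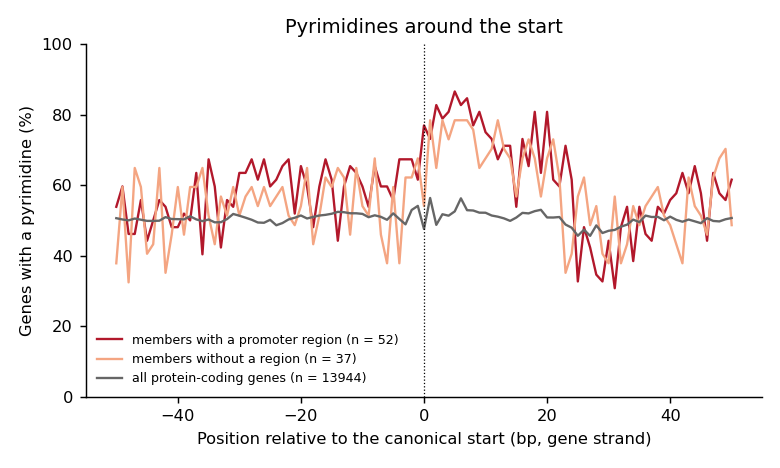
Percent of genes with a pyrimidine at each position from 50 bp before to 50 bp after the canonical start, for 52 ribosomal protein genes with a promoter region (red), 37 without a region (pale) and 13944 protein-coding genes (grey). Both lines of ribosomal protein genes rise above the grey line just after the start, and the grey line stays near 50%.

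Sites of known promoter factors were searched on both strands in the sequence within 100 bp of the summits, and examples are shown because they mark where the summits lay relative to such sites. Each line below gives the 81 bases centred on the summit in the direction of transcription, with capitals for the matched letters, TATCGATA in RpL28 and RpL34a and GGTCACA in RpL27A.
RpL28 (chr3L:3222973-3223053, minus strand): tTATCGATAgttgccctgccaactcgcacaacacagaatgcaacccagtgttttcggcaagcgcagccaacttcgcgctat
RpL34a (chr3R:26059262-26059342, minus strand): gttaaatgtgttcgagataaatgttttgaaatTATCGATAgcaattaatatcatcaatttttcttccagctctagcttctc
RpL27A (chr2L:4458337-4458417, minus strand): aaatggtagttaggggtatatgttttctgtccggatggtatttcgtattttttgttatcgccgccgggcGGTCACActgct

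TATCGATA lay within 100 bp of the summit in 15 of the 52 promoter regions of ribosomal protein genes (28.8%, 18.3 to 42.3%), against 3.64% of the 1485 other promoter regions. GGTCACA lay there in 8 (15.4%, 8.01 to 27.5%), against 2.96%. CACGTG, the site of Myc and Max, lay there in 7 (13.5%, 6.68 to 25.3%), against 1.82%. TAATTA, which LIM-homeodomain proteins such as Awh can recognise, lay there in 3 (5.77%, 1.98 to 15.6%), against 18.1%. A match is a description of letters and not of binding. The windows of the 2 sets also lie differently, with median summits at −9 bp and −103 bp. From 250 bp before to 50 bp after the canonical start, TAATTA was found at 15.4% of ribosomal protein genes with a promoter region. The share was 19.2% of other genes with one. For GGTCACA these shares were 17.3% and 10.7%, for TATCGATA 30.8% and 8.77%, and for CACGTG 9.62% and 4.21%.

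Base composition moved with the shares near summits. The median GC content within 100 bp of the summit was 43.3% (SD 5.62 across regions) for the 52 regions and 36.8% (SD 9.44) for other promoter regions. TTTAAA, with the same letters as TAATTA, lay near 9.62% of the summits of ribosomal protein genes, against 30.2% of other promoter summits, and AATATT near 21.2%, against 25.1%. The parts of base composition and of window position in these differences were not tested.

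The core site of GAGA factor, GAGAG, lay near 13.5% of the summits of ribosomal protein genes, against 27.5% of other promoter summits. A TATA box core, TATAAA, lay near 17.3%, against 33.5%. These windows follow the summits, which lay nearer to the start at ribosomal protein genes. From 100 bp before to 50 bp after the canonical start, TATAAA was found at 15.4% of ribosomal protein genes with a promoter region. The share was 14.9% of other genes with one. For GAGAG these shares were 13.5% and 27.0%.

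In the window from 250 bp before to 50 bp after the canonical start, TATCGATA was found at 28 of 92 ribosomal protein genes (30.4%, 22.0 to 40.5%), against 8.94% of all promoters of the same length. Genes with a promoter region had it in 30.8% of cases (19.9 to 44.3%) and genes without a region in 27.0% (15.4 to 43.0%), so the intervals overlap. GGTCACA was found at 18.5% of the 92 genes, against 9.45% of all promoters, and in 17.3% and 18.9% of the genes with a promoter region and without a region. CACGTG was found at 10.9%, against 4.26%, and TAATTA at 22.8%, against 20.03%. TAATTA was found at 15.4% of the genes with a promoter region (8.01 to 27.5%) and 29.7% of those without a region (17.5 to 45.8%), and GAGAG at 23.1% (13.7 to 36.1%) and 8.11% (2.80 to 21.3%), with overlapping intervals in both cases. ACAGTG was found at 20.7%, against 13.9%, TTTAAA at 39.1%, against 38.2%, AATATT at 42.4%, against 30.0%, TATAAA at 45.7%, against 45.3%, and GAGAG at 16.3%, against 30.2%.

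By chromosome, a region was assigned to 12 of 15 ribosomal protein genes on X, 10 of 14 on 3L, 12 of 19 on 2L, 12 of 20 on 2R, 9 of 23 on 3R and to the 1 gene on chromosome 4, RpS3A, not at all. Over all genes these shares ran from 19.8% on X to 22.8% on 3L among the long arms. A protein-coding start on the opposite strand within 500 bp was annotated at 36 of the 92 genes, of which 22 had a region, against 33 of the 56 genes without such a neighbour. The 4 genes beside a region nearer to an opposite-strand start are counted here as without a region. The same split was not made over all protein-coding genes, so these counts have no background share beside them.

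Other genes of translation gave mixed counts. Of 34 elongation and initiation factor genes, 9 had a region (26.5%, 14.6 to 43.1%), an interval that includes the share of all genes. eEF1alpha1, which brings aminoacyl-tRNA to the ribosome, had a region of 151.4 (75.6 in replicate 1 and 73.9 in replicate 2) at −19 bp, and eEF5 had 139.8 (49.2 and 82.8) at −30 bp. eIF3c, a subunit of an initiation factor, had 89.9 (54.5 and 41.4) at 7 bp. eIF6, which keeps the subunits apart, had 818.8 (462.8 and 352.7) at −122 bp, outside the range of summit positions at ribosomal protein genes. The others were eEF1gamma, eIF2beta, eIF3h and eIF5B with promoter regions, and pAbp, the poly(A)-binding protein gene, with one 506 bp from a start.

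Of 6 genes for ribosome-associated proteins, 4 had a region, among them Rack1, a scaffold on the small subunit, with 164.2 (73.0 in replicate 1 and 100.7 in replicate 2) at −5 bp. Nacalpha, a chaperone of nascent chains, had 133.9 (68.9 and 68.3) at −15 bp. Tctp had 74.2 (36.3 and 39.2) at 77 bp, and bic had one 2378 bp from its start. Of 15 ribosome assembly genes matched in the annotation, 1 had a region, Ns1, 7221 bp from its start. Start signals of assembly genes without an assigned region reached 412.0 at pont (257.9 in replicate 1 and 154.9 in replicate 2) and 268.9 at Ns2 (169.4 and 97.2), at percentiles 99.2 and 98.1 of all genes. Of the 5 matched genes for factors known at these promoters, Trf2 had a region at −90 bp with 76.7 (34.4 and 36.5) and Myc one at −17795 bp with 221.9 (124.7 and 91.1). Dref, M1BP and Tbp had none assigned. Dref starts on the opposite strand within 500 bp of RpL13, and its start signal of 140.8 (65.6 and 73.0) equals that of the region assigned to RpL13. In the same way eIF1, without an assigned region, starts within 500 bp of RpL28 and has the start signal of 192.4 of the region assigned to RpL28.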

How the data were processed

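ChIP-seq peak lists of 2 biological replicates were analysed. The authors deposited, on the dm6 build per the labels, ranked and thresholded lists for each replicate and for both together. The deposited signal is the peak caller's value per peak, with no scaling recorded. The authors' score is a whole number up to 1000 that follows the irreproducible discovery rate, and 830 stands for a rate of 0.01. The deposited summit position is an offset from the peak start. The aligner, the peak caller and its control were not given in the sources used here.

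Overlapping conservative peaks on 6 chromosomes (5024 of 5026) were merged, keeping the strongest summit, and assigned to the nearest protein-coding start (Ensembl 115, BDGP 6.54), ties to all genes. A replicate's signal is its strongest ranked peak overlapping a region by at least 1 bp. Genes with no candidate peak were ranked lowest in percentiles. Shares carry Wilson intervals (scipy 1.17.1, pandas 2.3.3, Python 3.11.15), which cover counting error only. Assignment was tested on simulated data. There was 1 group, so no test between groups was made.

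The genes and lists were chosen with earlier results of these data known. Full values are given for the 10 genes with the strongest regions, genes with more than 1 region or a region away from the promoter, the 3 genes on either side of the list's limit and paralogous families. Other genes were named after their values were seen. The symbols ns3 and max matched no gene name. Some genes are counted but not reported here by name. Alternatives were the optimal list, single replicates, the stronger regions, unmerged peaks, canonical starts, other distance limits, another overlap and another motif window.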

Additional observations from a re-analysis of the deposited data

How the results depend on the processing

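The count of ribosomal protein genes with a region was 55, and 36 to 49 in the lists of single replicates and 35 among the stronger 50% of regions. For the large subunit the count of 37 became 23 to 32 and 22 under the same settings. The median summit position of −9 bp ranged from −16.5 to −10 bp with single replicates and was −14 bp with canonical starts. The median signal over all 58 regions, 141.3, was 75.2 to 79.5 on the single replicates' own scale, 160.9 among the stronger 50% and 150.0 with any start within 500 bp. The share of all genes with a region, 20.5%, was 14.7 to 16.5% with single replicates, 22.7% with the optimal list, 12.7% among the stronger 50%, 21.5% with canonical starts and 13.6% with any start within 500 bp. Among genes' sequences, TAATTA fell to 4.35% of the ribosomal protein genes in a window from 100 bp before the start, against 22.8% in the longer one, and over all genes the shares were 6.73% and 20.03%. The small-subunit count (13 to 20), the count of promoter regions (35 to 56) and the replicate ratio stayed within 1.5 times of their value or within the spread across regions. The stronger 50% holds fewer regions by construction, and the shorter motif window can only hold fewer matches. Counting any start within 500 bp leaves out summits farther away by construction. For the other settings the cause was not tested. No paired analysis was possible because there is only 1 group. Unknown depth limits what absence from the list shows, and there were only 2 replicates. No control library was analysed, and no value here gives the signal of embryos without the fusion protein.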

Other observations

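Letters recurring in the printed sequences were searched after they had been noticed, so the shares below describe a pattern found in the same data. CACACT on either strand lay within 100 bp of the summit in 23 of the 52 promoter regions of ribosomal protein genes (44.2%, Wilson interval 31.6 to 57.7%), against 15.0% of the 1485 other promoter regions and 13.4% of all other regions. It shares 4 letters with the end of GGTCACA, which was also present in 6 of the 23. Most of these regions thus had CACACT without an exact match to GGTCACA. In the RpL27A line above the letters run together as GGTCACACT. Inexact copies of the M1BP site were not searched, so CACACT cannot be told apart from a part of such copies. In 16 of the 23 CACACT lay within 50 bp of the summit, and 20 of its 26 occurrences were on the strand of the gene. RpL24 carries CACACT from its start base onward in the sequence shown above.

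CAACTTC lay within 100 bp of the summit in 9 of the 52 regions (17.3%, 9.38 to 29.7%), against 1.95% of other promoter regions and 2.22% of all other regions. These were at RpL7, RpL13, RpL27A, RpL28, RpLP0, RpS19a, RpS21, RpS27A and RpS28b, the last with it on both sides of the summit. Its median distance to the summit was 20.5 bp. In the window from 250 bp before to 50 bp after the canonical start it was found at 10 of the 92 ribosomal protein genes (10.9%), against 3.75% of all promoters, and CACACT at 36 (39.1%), against 20.8%. At the 37 genes without a region the shares were 8.11% for CAACTTC and 32.4% for CACACT. At the 52 genes with a promoter region CAACTTC was found in 13.5%, against 3.23% of other genes with one. For CACACT these shares were 42.3% and 24.8%, a smaller gap than near the summits, which lay at different distances from the start. No factor is named for these letters here, and they were not tested.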
